A study of Mus musculus with 4 samples.

Results

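Nucleotide excision repair was examined in mouse lens epithelia, the single cell layer under the front capsule of the lens, 24 h after ultraviolet B (UVB) irradiation in vivo. The 37 genes listed were those of UV damage recognition, excision, gap filling and translesion synthesis, with the checkpoint kinase gene Atr. They were chosen by function and not by their values, though with earlier results of these data known. Of the 37 genes, 36 had a probe set of their own among the 19938 genes with one on the array. Gtf2h2, a core subunit of TFIIH, had none. Each gene was given by its probe set with the highest mean over the 4 arrays. UVB epithelia came from the right eyes of male C57BL/6 mice, 8 weeks old and anesthetized, after a dose of 30 mJ/cm2, and control epithelia from left eyes of the same mice, covered with aluminum foil and collected at the same 24 h. The 2 independent experiments gave 1 array per group each. How the RNA of the mice was divided among the arrays is not stated in the sources read here, so p-values measure only the spread between these arrays. The question addressed was whether transcripts of the repair machinery differed between irradiated and shielded epithelia.

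UVB joins neighbouring pyrimidines in DNA into dimers and other photoproducts. Nucleotide excision repair finds this damage either anywhere in the genome or where RNA polymerase II has stalled on it, opens the helix around it with TFIIH, cuts the damaged strand on both sides and fills the gap. Translesion polymerases copy damage that has not been removed. The lens epithelium absorbs UVB that passes the cornea and holds the cells from which new lens fibers form.

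Transcripts of the excision repair genes differed little between UVB and control, and most of the differences pointed down. UVB minus control on the log2 scale had a median of −0.0475 over the 36 genes and of −0.025 over all 19938 genes. The difference ran from −0.165 for Rpa3, or 89.2% of control, to 0.10 for Ccnh, or 107% of control. The identity of that Rpa3 probe set is uncertain, and a second Rpa3 probe set gave −0.135. The mean of the 2 experiments was below 0 for 27 genes (75%, against 58.8% of all genes), above 0 for 7 and 0 for Cetn2 and Gtf2h3. The signal was lower in both experiments for 22 of the 36 (61.1%), against 39.5% of all genes. It was higher in both for 3 (8.33%), Uvssa, Gtf2h5 and Ccnh, against 22.6% of all genes. Of the other 11 genes, 9 had opposite signs in the 2 experiments and 2 had a difference of 0 in one of them. With any single array left out, 5 genes were higher in each comparison that remained, and 24 or 25 were lower. With an array left out, the remaining array of its experiment was compared with an array of the other experiment. In experiment 1 alone 8 genes were higher and 26 lower, and in experiment 2 alone 8 were higher and 28 lower. None of these counts could fall below 3 higher and 22 lower, because the groups of those genes did not overlap. In whole epithelia, fewer cells of a type and less RNA per cell cannot be told apart.

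None of these differences passed a test corrected for the whole array. With limma and the experiment as a block, 0 of 36 genes had an adjusted p under 0.05, as did 0% of all genes. The lowest adjusted p among the 36 was 0.357. That was also the lowest value over all probe sets, so it does not set a gene apart. At an unadjusted p under 0.05, Xpa, Rpa3 and Polh were lower, which is 8.33% of the 36 against 8.03% of all genes. At that threshold 0 of 36 were higher, against 5.14% of all genes. At the study's thresholds of 1.8-fold and p under 0.01, limma called 0 of 36 in either direction, against 0.0802% of all genes higher and 0% lower. Without the block, limma gave 9 of the 36 an adjusted p under 0.05, namely Cdk7, Ercc1, Pold3, Polh, Rad23b, Rpa3, Xab2 and Xpa as lower and Uvssa as higher. That fit called 25.0% of the 36 and 18.2% of all genes. It counts 1 residual degree of freedom too many, because in 100% of probe sets the 2 arrays of either experiment summed to the same signal within 0.01. The same equality makes a gene that was lower in both experiments one whose groups did not overlap, as held for 7880 of 7880 genes. Groups that do not overlap thus only restate an equal sign in both experiments. That was seen downward in 39.5% and upward in 22.6% of all genes.

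The size of each difference was described by a 95% interval, which holds for 1 gene at a time and not for all 36 at once. For Polh and Xab2 both experiments gave the same difference. Their standard error of 0.0273 therefore rests only on the spread that limma takes from all probe sets. The 95% intervals of all 36 lay within 1.5-fold of control, from a lowest bound of −0.345 for Rpa2 (78.8% of control) to a highest of 0.273 for Ccnh (121% of control). The intervals reached a median of 0.136 to either side on the log2 scale. The mean difference exceeded 0.1 in size for 6 of the 36 (16.7%), against 32.1% of all genes. The 90th percentile of the absolute difference was 0.12 for the repair genes and 0.20 for all genes, whereas the medians were 0.065 and 0.07. These sizes were compared over genes of every level and not among genes of like level. In the levels, 34 of the 36 genes and 10788 of all 19938 genes lay above the median of all probe sets, a log2 signal of 7.21. Among genes above that level, 21 of 34 repair genes (61.8%) were lower in both experiments, against 43% of all, and 3 (8.82%) were higher in both, against 21.3%.

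**Figure D1:**
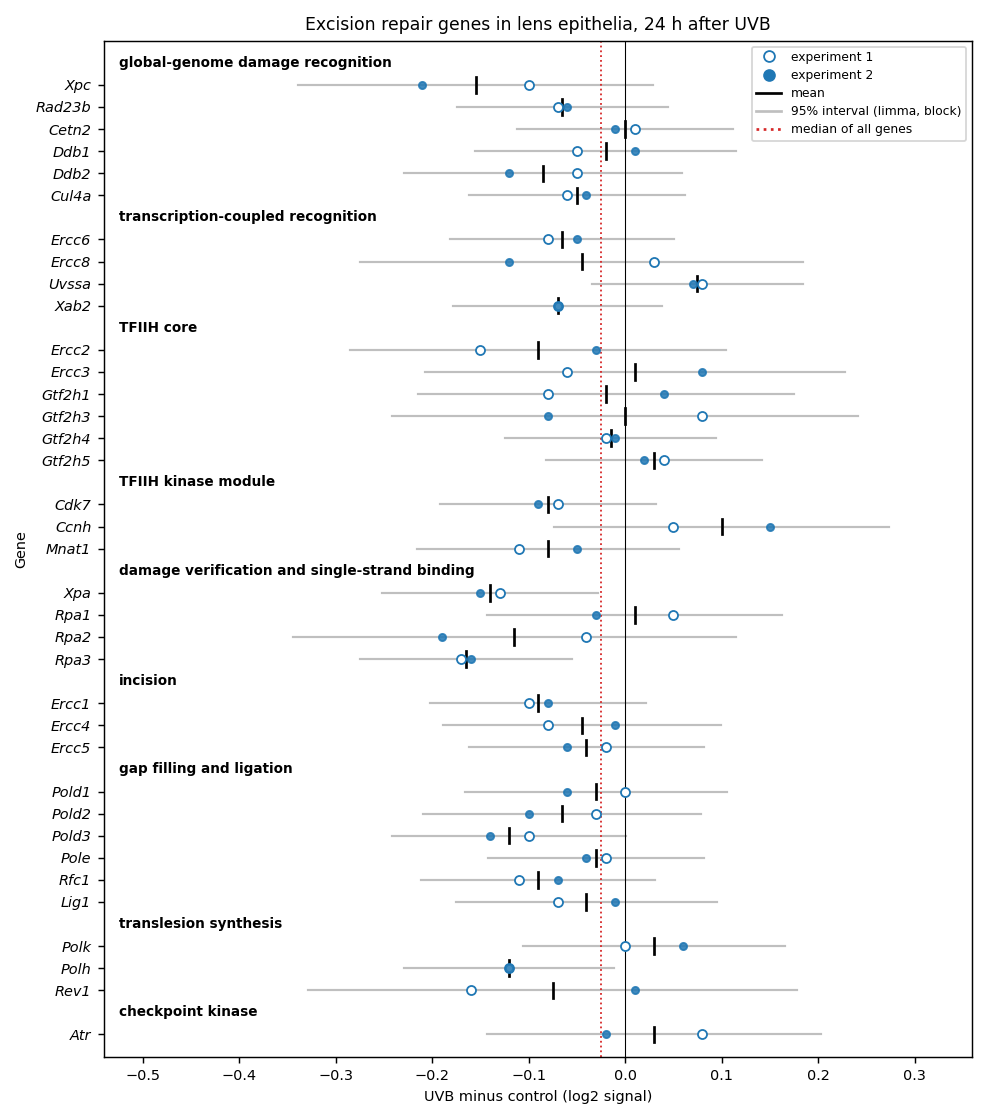
UVB minus control in log2 signal (x axis) for the 36 excision repair and translesion genes (y axis), grouped by repair step. Open and filled points are experiments 1 and 2, black ticks their mean, grey lines the 95% interval of the limma fit with the block, and the dotted line the median of all genes at −0.025. Of the 36 intervals, 3 lie below 0, those of Xpa, Rpa3 and Polh, and the means of 27 genes lie left of 0.

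Sequences before a transcription start are shown for the 3 genes with an unadjusted p under 0.05. Uvssa, the higher gene with the least spread between experiments, is shown as well. The 250 bases upstream of a RefSeq start in GRCm38.p6 are written 5′ to 3′ on the strand of the gene. Capitals mark, on either strand, a GC box (GGGCGG), the CCAAT box, the ETS motif CCGGAAG, an E2F motif (TTTCCCGC or TTTGGCGC), a TATA box (TATAAA) or an NRF1 motif (GCATGCGC). The sequences lie at chr4:46196312-46196561 (minus strand, Xpa), chr6:8259142-8259391 (minus strand, Rpa3), chr17:46202642-46202891 (minus strand, Polh) and chr5:33378446-33378695 (plus strand, Uvssa). Those of Xpa and Uvssa overlap the annotated gene, which ends at 46196344 for Xpa and begins at 33378523 for Uvssa. The start used for these 2 thus lies inside the gene, whereas the sequences of Rpa3 and Polh adjoin theirs.
Xpa: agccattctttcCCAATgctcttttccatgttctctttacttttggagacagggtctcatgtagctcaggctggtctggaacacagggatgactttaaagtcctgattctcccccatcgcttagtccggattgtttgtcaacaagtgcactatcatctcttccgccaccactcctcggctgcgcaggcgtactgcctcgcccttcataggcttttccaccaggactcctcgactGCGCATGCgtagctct
Rpa3: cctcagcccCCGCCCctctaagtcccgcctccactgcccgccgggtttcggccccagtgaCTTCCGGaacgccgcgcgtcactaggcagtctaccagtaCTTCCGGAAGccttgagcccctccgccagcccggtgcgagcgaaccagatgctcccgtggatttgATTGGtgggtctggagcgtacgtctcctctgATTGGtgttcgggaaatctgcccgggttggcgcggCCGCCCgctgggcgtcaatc
Polh: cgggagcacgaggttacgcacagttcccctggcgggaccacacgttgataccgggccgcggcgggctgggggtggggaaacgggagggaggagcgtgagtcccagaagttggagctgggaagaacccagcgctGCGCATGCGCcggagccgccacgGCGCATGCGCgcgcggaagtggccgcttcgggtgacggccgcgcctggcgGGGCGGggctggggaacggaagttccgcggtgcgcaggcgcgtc
Uvssa: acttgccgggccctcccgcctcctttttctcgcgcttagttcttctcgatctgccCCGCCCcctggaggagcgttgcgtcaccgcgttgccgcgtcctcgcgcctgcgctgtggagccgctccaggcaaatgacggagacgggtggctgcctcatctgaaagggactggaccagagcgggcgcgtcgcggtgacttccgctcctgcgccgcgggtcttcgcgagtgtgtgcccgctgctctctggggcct

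The 4 sequences did not share a layout. Rpa3 had ETS motifs, CCAAT boxes and GC boxes, Polh had NRF1 motifs and a GC box, Xpa had CCAAT and an NRF1 motif, and Uvssa a GC box alone. Their GC content was 52.0% for Xpa, 66.4% for Rpa3, 73.2% for Polh and 68.4% for Uvssa. The table held 37 promoters of 32 of the listed genes, and none for Ddb2, Ccnh, Ercc3, Xpc and Pole. Over those 37, the median GC content was 64.4%, against 52.4% over all 32851 promoters. A GC box stood in 26 of the 37 (70.3%), against 32.7% of all promoters, and an ETS motif in 6 (16.2%), against 6.91%. The TATA letters were found in 1 (2.70%), against 12.4% of all promoters. CCAAT was found in 14 (37.8%), against 33.8%, and an E2F motif in 0, against 1.30%. The NRF1 motif, added to the search after these sequences had been seen, was found in 5 (13.5%), against 2.26%. A single p53 repeat, which in a pair forms the element bound by p53, was found in 2 (5.41%), against 7.13% of all promoters. The motifs can overlap one another, and a match is a description of the letters only. GC content was not held equal in these comparisons.

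Recognition of damage anywhere in the genome begins with Xpc, which binds the distorted helix together with Rad23b and Cetn2. Log2 signals of Xpc were 8.06 and 8.11 in control and 7.96 and 7.90 in UVB. The difference was −0.155 (standard error 0.046, 95% interval −0.339 to 0.029, limma adjusted p = 0.361). The groups did not overlap, which here only restates a lower signal in both experiments, as in 39.5% of all genes. The experiments differed in size, at −0.10 in experiment 1 and −0.21 in experiment 2. Ddb2 binds UV photoproducts and, with Ddb1 and the cullin Cul4a, forms the ligase that marks Xpc at the lesion. Its signals were 7.82 and 7.86 in control and 7.77 and 7.74 in UVB. The groups did not overlap, and the difference of −0.085 had a 95% interval from −0.229 to 0.059 (94.3% of control). The other genes of this step were given by their mean differences, −0.065 for Rad23b, −0.05 for Cul4a, −0.02 for Ddb1 and 0 for Cetn2. In all, 4 of the 6 genes of global-genome recognition were lower in both experiments (66.7%, against 39.5% of all genes). Higher in both were 0, against 22.6% of all genes, and the median was −0.0575. No test was run on the genes of a step as a set.

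Transcription-coupled recognition starts from a stalled RNA polymerase II, to which Ercc6 (CSB) and Ercc8 (CSA) are recruited and where Uvssa brings in TFIIH. Uvssa had log2 signals of 7.45 and 7.46 in control and 7.53 and 7.53 in UVB. Both UVB values lay above both control values, and the difference was 0.075 (standard error 0.028, 95% interval −0.035 to 0.185, limma adjusted p = 0.386). Uvssa was thus the one gene of the step that was higher in both experiments. Xab2, a splicing factor that binds Xpa, had 9.30 and 9.30 in control and 9.23 and 9.23 in UVB, a difference of −0.07 with no overlap. Ercc6 was lower in both experiments, with a mean of −0.065, whereas Ercc8 had 0.03 in experiment 1 and −0.12 in experiment 2. The median of the 4 genes was −0.055.

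TFIIH opens the helix at the lesion through its helicases Ercc2 (XPD) and Ercc3 (XPB). Control signals of Ercc2 were 8.86 and 8.80, and UVB signals 8.71 and 8.77. The groups did not overlap, but most of the difference came from experiment 1 (−0.15, against −0.03 in experiment 2), and the mean of −0.09 had a 95% interval from −0.285 to 0.105. Gtf2h5 (TTDA), the small subunit that stabilizes the complex, had control signals of 10.19 and 10.20 and UVB signals of 10.23 and 10.22, so that both UVB values were above both controls by a mean of 0.03. Gtf2h4 was lower in both experiments, by 0.02 in experiment 1 and by 0.01 in experiment 2. Ercc3, Gtf2h1 and Gtf2h3 had opposite signs in the 2 experiments, and their means were 0.01, −0.02 and 0. The 6 measured core genes had a median of −0.0075, the value closest to 0 among the steps.

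The kinase module of TFIIH phosphorylates RNA polymerase II and is released when repair begins. Its kinase gene Cdk7 gave 8.17 and 8.18 in control and 8.10 and 8.09 in UVB, a difference of −0.08. A second probe set of Cdk7 gave 7.68 and 7.67 in control and 7.56 and 7.57 in UVB, a difference of −0.11. Ccnh encodes cyclin H, the partner of Cdk7, and its signals were 9.49 and 9.44 in control and 9.54 and 9.59 in UVB. Its groups did not overlap, and its difference of 0.10 was 0.05 in experiment 1 and 0.15 in experiment 2 (95% interval −0.073 to 0.273). Mnat1, which assembles the kinase, was lower in both experiments with a mean of −0.08. The 3 subunits of this module thus had differences of both signs, and the difference between them was not tested.

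**Figure D2:**
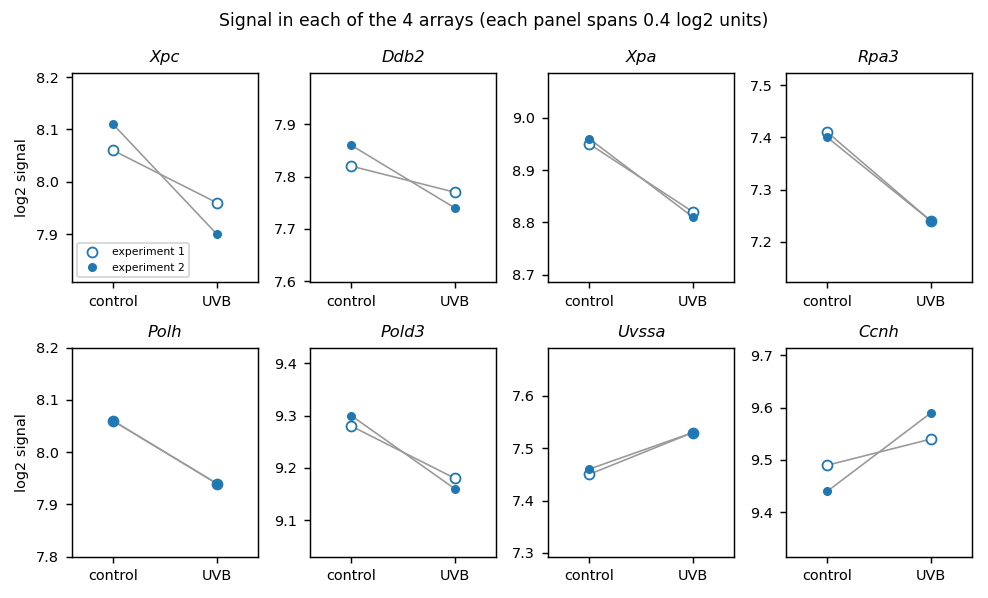
Log2 signal (y axis) in control and UVB (x axis) for 8 genes, with open points for experiment 1, filled points for experiment 2 and a line joining the arrays of an experiment. Each panel spans 0.4 log2 units around the mean of its gene. UVB values lie below both controls for Xpc, Ddb2, Xpa, Rpa3, Polh and Pold3 and above both for Uvssa and Ccnh. Such separation follows from an equal sign in both experiments, seen downward in 39.5% and upward in 22.6% of all genes.

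After the helix has been opened, Xpa checks the damage and holds the complex together, while the single-strand binding protein RPA (Rpa1, Rpa2 and Rpa3) covers the intact strand. Xpa had log2 signals of 8.95 and 8.96 in control and 8.82 and 8.81 in UVB. The groups lay 0.13 apart, and the difference was −0.14 (standard error 0.028, 95% interval −0.252 to −0.028, 90.8% of control, limma adjusted p = 0.357). Xpa, on chromosome 4, was the only gene of this step with a single probe set and an unadjusted p under 0.05. Rpa3, the smallest RPA subunit, gave 7.41 and 7.40 in control and 7.24 and 7.24 in UVB. Its groups lay 0.16 apart, with a difference of −0.165 (standard error 0.028, 95% interval −0.275 to −0.055, limma adjusted p = 0.357). The identity of that probe set is uncertain, since 7 of the 8 probe sets with neighbouring numbers belonged to genes of chromosome 1, whereas Rpa3 lies on chromosome 6. A second Rpa3 probe set, with 7 of its 8 neighbours on chromosome 6, had 7.03 and 7.00 in control and 6.86 and 6.90 in UVB. That probe set gave a difference of −0.135 with no overlap of the groups, and both probe sets were therefore lower. Rpa2 was lower by 0.04 in experiment 1 and by 0.19 in experiment 2, and Rpa1 had opposite signs with a mean of 0.01. Of the 4 genes of the step, 3 were lower in both experiments (75%, against 39.5% of all genes). The step had a median of −0.1275, the lowest of the steps.

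The damaged strand is cut on its 5′ side by the Ercc1-Ercc4 (XPF) nuclease and on its 3′ side by Ercc5 (XPG). Control signals of Ercc1 were 8.91 and 8.90 and UVB signals 8.81 and 8.82, a difference of −0.09 with no overlap (95% interval −0.202 to 0.022). Ercc4 had 7.63 and 7.59 in control and 7.55 and 7.58 in UVB. Its groups lay 0.01 apart, with a difference of −0.045. Ercc5 had a mean difference of −0.04. All 3 incision genes were thus lower in both experiments, against 39.5% of all genes.

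The gap is filled by DNA polymerase δ or ε with a sliding clamp, which replication factor C loads, and is sealed by a ligase. Pold3, an accessory subunit of polymerase δ, gave 9.28 and 9.30 in control and 9.18 and 9.16 in UVB. The groups lay 0.10 apart, and the difference of −0.12 had a 95% interval from −0.241 to 0.001 (limma adjusted p = 0.357). Rfc1, the large subunit of replication factor C, had 8.78 and 8.76 in control and 8.67 and 8.69 in UVB, a difference of −0.09. Pold2, Lig1 and Pole were also lower in both experiments, with means of −0.065, −0.04 and −0.03. Pold1, the catalytic subunit of polymerase δ, had 0 in experiment 1 and −0.06 in experiment 2. Of the 6 genes, 5 were lower in both experiments (83.3%, against 39.5% of all genes) and 0 higher, against 22.6%. Their median was −0.0525.

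Among the translesion polymerases, Polh encodes polymerase η, which copies thymine dimers accurately and is lost in the variant form of xeroderma pigmentosum. Its signals were 8.06 and 8.06 in control and 7.94 and 7.94 in UVB. Both experiments gave −0.12, with a 95% interval from −0.229 to −0.011 (92.0% of control, limma adjusted p = 0.357). Polk, the gene of polymerase κ, which also takes part in filling repair gaps, had 7.32 and 7.29 in control and 7.32 and 7.35 in UVB. Its groups touched, and the difference of 0.03 had a 95% interval from −0.105 to 0.165. Rev1, the scaffold of the translesion polymerases, had 10.23 and 10.14 in control and 10.07 and 10.15 in UVB. The groups overlapped, since the difference was −0.16 in experiment 1 and 0.01 in experiment 2. Atr, the kinase that senses single-stranded DNA at stalled forks and at repair gaps, had 8.09 and 8.14 in control and 8.17 and 8.12 in UVB. Its groups overlapped as well, with 0.08 in experiment 1 and −0.02 in experiment 2.

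**Figure D3:**
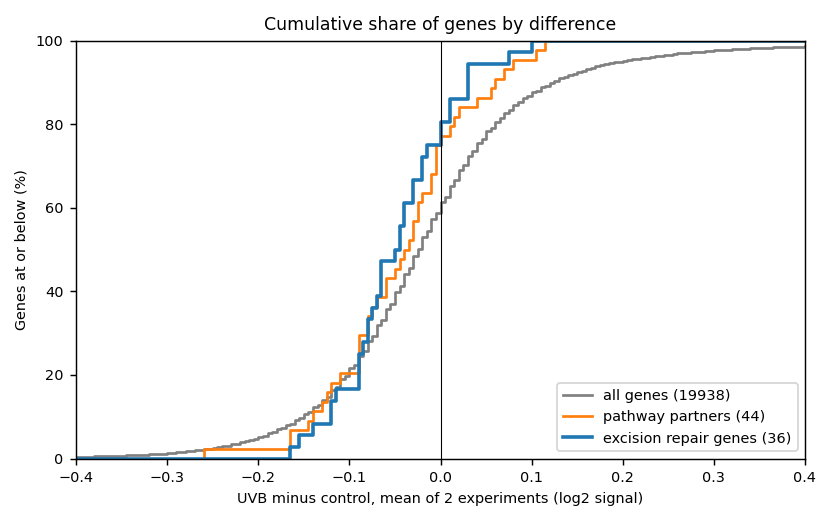
Cumulative share of genes in percent (y axis) at or below a given UVB minus control difference, as the mean of the 2 experiments in log2 signal (x axis), for the 36 excision repair genes, 44 pathway partners and all 19938 genes. The curve of the repair genes rises between −0.165 and 0.10, whereas all genes also reach beyond both ends.

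The wider pathway was described with 44 partners that had a probe set of their own. They comprised polymerase, clamp and clamp loader subunits, partners of transcription-coupled repair, the Rad18 branch of damage tolerance and the Atr checkpoint. Of the 44, 22 were lower in both experiments (50%, against 39.5% of all genes) and 4 were higher (9.09%, against 22.6%), with a median of −0.0375, against −0.025 over all genes. With limma and the block 0 had an adjusted p under 0.05. At an unadjusted p under 0.05, 4 were lower (Rfc3, Xrcc1, Usp1 and Timeless, 9.09% against 8.03% of all genes). In the other direction 0 passed, against 5.14% of all genes. Without the block, 9 had an adjusted p under 0.05 (20.5%, against 18.2% of all genes). Rfc3, a small subunit of the clamp loader that also holds Rfc1, gave 8.09 and 8.10 in control and 7.84 and 7.83 in UVB. Its groups lay apart, with a difference of −0.26 (limma adjusted p = 0.357). Timeless, which protects replication forks, and Usp1, which removes ubiquitin from the sliding clamp, each had a difference of −0.165. The 2 highest partners were Polr2a, the large subunit of RNA polymerase II, at 0.115, and Rev3l, the catalytic subunit of polymerase ζ, at 0.105.

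The repair genes were also read against the scaling of the arrays and against other genes of the tissue. Median log2 signals were 7.19 and 7.20 in the control arrays and 7.22 and 7.21 in the UVB arrays. With the array medians set equal, 24 repair genes were lower in both experiments (66.7%, against 47.3% of all genes). With the 75th percentiles set equal, 16 were lower (44.4%, against 31.5%) and 4 higher. Quantile normalization gave 21 lower (58.3%, against 36.9%) and 3 higher. Higher in both experiments were 17.1% of all genes with equal medians, 29% with equal 75th percentiles and 27.1% after quantile normalization. Setting medians or percentiles equal shifts all genes of an array alike, so it leaves the gap between the median of the repair genes and that of all genes as it was. After quantile normalization these medians were −0.0403 and −0.0144, against −0.0475 and −0.025 as deposited.

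**Figure D4:**
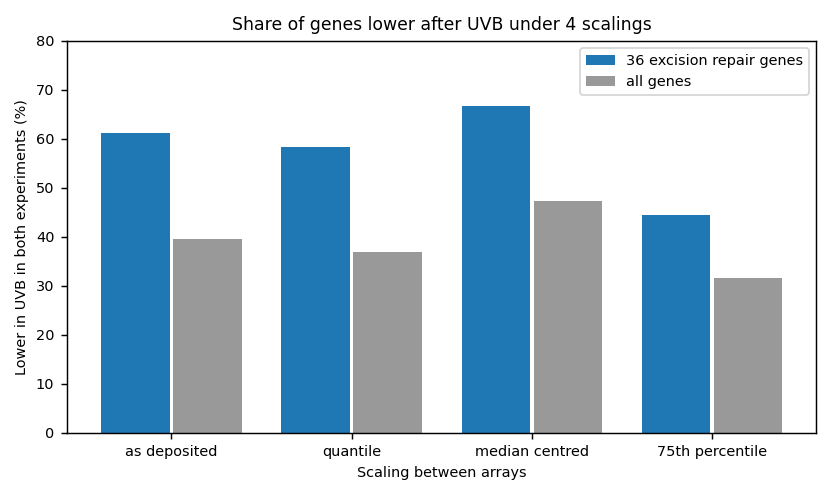
Share of genes in percent (y axis) that were lower in UVB in both experiments, for the 36 excision repair genes (blue bars) and all 19938 genes (grey bars), under 4 scalings between arrays (x axis). The blue bar is the taller of each pair, from 44.4% with equal 75th percentiles to 66.7% with equal medians, and no test was run on these shares.

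Markers of the lens and of other eye tissues were set beside these values. All 9 lens epithelium markers, among them Foxe3 and Pax6, lay above the median level of all probe sets, and their median difference was 0. In both experiments 3 were lower (33.3%, against 39.5% of all genes) and 3 higher (33.3%, against 22.6%). Of the 3 lower, Foxe3 had −0.14, Pax6 −0.075 and Pitx3 −0.06. Only Foxe3 of the 9 had an unadjusted limma p under 0.05 (11.1%, against 8.03% of all genes in that direction). The 3 higher, Cryab, Cryaa and Sfrp1, had differences of 0.055, 0.045 and 0.03. The 9 lens fiber markers had a median of −0.07. In both experiments 5 of them were lower (55.6%, against 39.5% of all genes) and 3 higher (33.3%, against 22.6%). Photoreceptor markers were higher in both experiments for 12 of 12 measured genes (median 0.94), and pigment epithelium markers for 7 of 7 (median 1.36). The log2 of the summed photoreceptor signal was 13.04 and 12.75 in control and 13.66 and 13.95 in UVB, and that of the pigment epithelium 10.80 and 10.92 in control and 12.33 and 12.21 in UVB. The same sum over the repair genes was 14.26 and 14.26 in control and 14.21 and 14.22 in UVB. The part of other cells in the differences of the repair genes was not tested. The 13 measured genes of cycling cells, which share replication proteins with gap filling, had a median of −0.05. In both experiments 6 of them were lower (46.2%, against 39.5% of all genes) and 1 higher (7.69%, against 22.6%). The 13 measured p53 response genes, a group that includes known UV-inducible genes, had a median of 0.01. In both experiments 4 of the 13 were lower (30.8%, against 39.5% of all genes) and 3 higher (23.1%, against 22.6%). The 3 higher, Phlda3, Btg2 and Sesn2, had differences of 0.17, 0.17 and 0.14. All 3 had an unadjusted limma p under 0.05, as did 5.14% of all genes in that direction. The largest differences of that list, named after their values were seen, were those of Gadd45a (−0.16 in experiment 1 and −0.49 in experiment 2) and Fas (−0.15 and −0.46), which did not reach that threshold. Leukocyte markers had a median of 0.10 and ran from −0.195 to 0.68. In both experiments 5 of these 7 were higher (71.4%, against 22.6% of all genes) and 1 lower (14.3%, against 39.5%). Cornea markers had a median of 0.178, with 0.385 in experiment 1 and −0.07 in experiment 2. Blood vessel markers had a median of −0.085, with 3 of 4 lower in both experiments (75%, against 39.5%) and Kdr higher at 0.385.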

How the data were processed

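RNA of mouse lens epithelia was hybridized to Affymetrix gene arrays, and the methods name a human array, whereas the probe sets carry mouse symbols. The deposited log2 signals had been normalized by the authors, and Affymetrix Expression Console is named in the labels without a version. How background was removed and probes were summarized is not stated in the sources read here. The precision is limited by the number of arrays. Of 28944 probe sets, 21789 had 1 symbol, 1621 several and 5534 none, and genes were named from probe sets with 1 symbol.

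Differences between UVB and control were fitted with limma 3.58.1 (R 4.3.3) over all probe sets, two-sided, with Benjamini-Hochberg adjustment and a block for the experiment, so that its 2 arrays are paired. The design takes both eyes from the same mice, but whether 2 arrays of an experiment held the same mice is not stated. The methods name 3 mice for the animal work. Residuals of arrays with the same number were correlated at −0.998, as equal experiment sums force them to be. The fit had 1 residual and 1.18 prior degrees of freedom and was tested on simulated data. Genes given in every array were the 2 with the largest difference in each repair step, Xpc, Ddb2, Polh, Polk and Xpa, and those past a threshold. Partners named were the 2 highest and 2 lowest, with ties. The genes and lists were chosen with earlier results of these data known. Alternatives were no block, an intensity trend, a robust prior, 3 scalings, a filter on dim probe sets, averaging over a gene's probe sets, each array left out, each experiment alone and other thresholds.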

Additional observations from a re-analysis of the deposited data

How the results depend on the processing

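The count of repair genes at an adjusted p under 0.05 was 9 without the replicate block, against 0 with it, and that of pathway partners was likewise 9, against 0. It was 3 at an unadjusted p. The fits without the block or with 1 array left out assume independent arrays. With 1 array left out, the block leaves no residual degrees of freedom, and the unblocked fit called 0 repair genes. The number of repair genes higher in both experiments was 5 with any array left out and 8 in experiment 1 alone and in experiment 2 alone, against 3. That number could not fall below 3, because the groups of those genes did not overlap. The median difference was −0.0575 over genes above the median level, −0.0403 after quantile normalization, −0.0675 with equal medians, −0.0275 with equal 75th percentiles, −0.06 in experiment 1 alone, and between −0.055 and −0.0475 with an array left out. Rev1 at 0.01 and Atr at −0.02 changed sign in experiment 2 alone. The fit without the block counts 1 residual degree of freedom too many. Equal medians and equal 75th percentiles shift all genes alike, and the median of all genes was −0.045 and −0.005 with them, against −0.025. Single experiments and left-out arrays rest on fewer arrays. The cause of the other changes was not tested. For the 18 genes given in every array, 208 alternative values kept direction and side of the threshold, and 8 passed it, all without the block. In single experiments, which have no test, 33 more values kept their direction, and Polk was at 0 in experiment 1. With 2 arrays per group, the intervals of all repair genes but Xpa, Rpa3 and Polh included 0. At p under 0.01, 0 repair genes passed 1.8-fold under the alternatives run, or 1.5-fold in the main fit. With a largest difference of −0.165 in the main fit, far short of either fold, these counts had little room to change.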
